A study of Caenorhabditis elegans with 83 samples.

Results

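Genes whose WBcel235 gene name starts with nhr-, the nuclear hormone receptor genes of Caenorhabditis elegans, were taken as 1 set by name alone. The annotation holds 269 such genes, and 268 of them had a row among the 20449 gene rows of the SX1263 libraries and the 20390 gene rows of the EG6089 libraries. The remaining gene, nhr-93, had no row in either set. The measurement was small RNA sequencing of whole day 1 adults, with sequenced small RNAs counted on each gene in 83 libraries that form 28 groups.

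The groups were built on 2 strain backgrounds with a germline GFP reporter, and all animals, wild type included, carried the background named. In SX1263 they were met-2(n4256), set-25(n5021), the double mutant met-2(n4256);set-25(n5021), and wild type, each sampled as P0 and as F3 adults. In SX1263, met-2 and wild type were also sampled at F15. In EG6089 they were the same double mutant and wild type, at P0 and F3. Each of these came as animals from an anti-GFP line, whose P0 ate bacteria with dsRNA against GFP, and from a control line, whose P0 ate bacteria with the empty vector. Descendants in both lines ate OP-50 bacteria, so F3 and P0 also differ in food. Each group held 3 libraries except the anti-GFP P0 wild type of SX1263, which held 2. The labels name 1 allele per mutated gene, and do not say whether the libraries of a group came from separate cultures, so p-values measure the spread between these libraries.

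Nuclear hormone receptors are transcription factors with a zinc-finger DNA-binding domain and a ligand-binding domain that answers to steroids, fatty acids and other lipophilic molecules. C. elegans carries a greatly expanded family, most of it derived from an ancestor like vertebrate HNF4, beside a few receptors with clear insect and vertebrate counterparts. Worm genes are also templates for small RNAs: endogenous siRNAs are copied from transcripts by RNA-dependent RNA polymerases, bound by Argonaute proteins, and can silence the matching gene in the nucleus. MET-2, the worm counterpart of SETDB1, is known for mono- and dimethylation of lysine 9 of histone H3, and SET-25 for its trimethylation. The counts describe small RNAs that match a receptor gene. They are not levels of its mRNA or protein, and the strand used in counting is not given in the sources used here, so sense and antisense small RNAs cannot be told apart.

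The receptor genes were concentrated on chromosome V. It carried 167 of the 269, or 3.344% of its 4994 protein-coding genes, against 1.347% of all 19973 protein-coding genes. Chromosome IV held 33, I and X held 23 each, II held 15 and III held 8. On all chromosomes together, 173 receptor genes lay within 20 kb of another one, and 160 lay in the outer 25% at either end of a chromosome. Neighbours of this kind are often recent duplicates, and small RNAs that match more than 1 copy may be set aside by the counting. Records set aside for low alignment quality were 7.93 to 15.4% in SX1263 and 10.8 to 14.3% in EG6089. How many of them match receptor genes was not tested, and single values in such clusters are uncertain to that extent.

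In wild-type controls most receptor genes had few small RNAs. Levels are counts per 1000000 gene counts after TMM scaling (CPM). Per kb of exon, the median over the receptor genes was 0.259 CPM in SX1263 P0, 0.277 in F3 and 0.287 in F15, against 0.921, 0.759 and 0.908 over all protein-coding genes. In EG6089 the medians were 0.291 CPM per kb at P0 and 0.202 at F3, against 0.659 and 0.646 over all protein-coding genes. Between 161 and 171 receptor genes were under 1 CPM in a wild-type control group, and 13 to 15 were at 100 CPM or more. The 10 most abundant held 71.5 to 75.7% of all counts on the family.

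**Figure D1:**
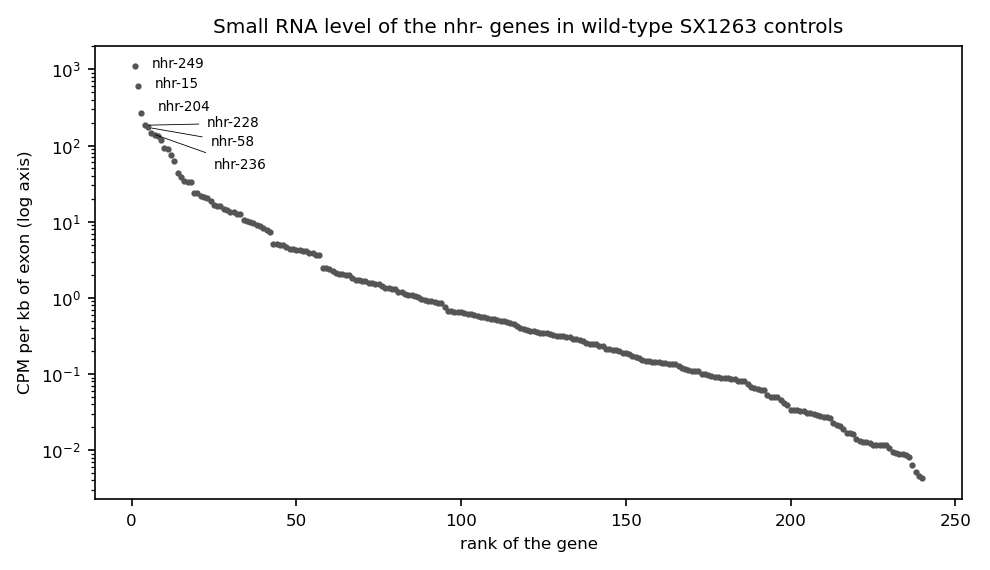
Mean small RNA level of each nuclear hormone receptor gene in wild-type SX1263 controls, in CPM per kb of exon on a log axis, ranked from highest to lowest. The 240 genes above 0 are drawn, 28 genes at 0 are not, and the 6 labelled genes run from nhr-249 at 1104 to nhr-236 at 144.4.

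The few abundant genes are mostly receptors without an assigned role. Per kb of exon, nhr-249 (IV:6971898-6972527, an exon length of only 488 bp) stood highest in SX1263 wild type at 1104 CPM per kb, and nhr-15 came next at 600.8. They were followed by nhr-204 at 269.9, nhr-228 at 184.8, nhr-58 at 173 and nhr-236 at 144.4 CPM per kb. In total counts nhr-15 (V:312721-323650) led with 1607 CPM, which was 26.99% of the small RNAs on the whole family. Of genes with a known role, nhr-86, an HNF4-like receptor that senses a pathogen metabolite in the intestine, had 131.6 CPM per kb. At the other end, 6 receptor genes had no count in any SX1263 library and 38 had none in any EG6089 library.

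Gene counts per library ran from 3583283 to 18225929 in SX1263 and from 2134929 to 6102965 in EG6089. A floor of 3 counts in a library was therefore worth between 0.165 and 0.837 CPM for SX1263, and between 0.492 and 1.41 CPM for EG6089. Such floors, like all counting intervals here, cover counting error only, since molecules carried no identifiers. The median correlation of a library with the others of its group ran from 0.939 to 0.988 in SX1263 and from 0.962 to 0.986 in EG6089. In the control F3 double mutant of SX1263, replicate 2 stood apart with 3583283 gene counts and only 64 receptor genes at 10 counts or more, against 94 in replicate 1 and more in replicate 3. Counts of that group are therefore also given without it. Small RNAs on met-2 itself fell by 1.76 to 2.02 on the log2 scale in met-2 and double mutants. Small RNAs on set-25 changed by −0.54 at P0 (adjusted p = 0.00759) and −0.57 at F3 (adjusted p = 0.0857) in set-25 mutants. They were lower in met-2 mutants too, at −0.49 at P0 (adjusted p = 0.00109), −0.43 at F3 (adjusted p = 0.0416) and −0.46 at F15 (adjusted p = 0.00597). In double mutants set-25 changed by −1.16 at both generations of SX1263, and by −1.45 at P0 and −1.56 at F3 in EG6089. What part of either gene the alleles remove is not used here.

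Small RNAs on genes of other tissues also moved with genotype. Summed CPM of the sperm markers ran from 228.6 to 306.7 in met-2 P0 controls, against 99.86 to 146.5 in wild type, and from 215.7 to 331.9 at F3, against 72.84 to 90.8. At F15 the ranges overlapped, at 63.59 to 171.6 in met-2 and 74.76 to 107.2 in wild type. Of the sperm markers tested in met-2, 1 was called higher and 1 lower of 9 at P0. At F3 5 were higher and 1 lower of 7, and at F15 7 were higher and 1 lower of 8. Oocyte and germ line markers summed to less in met-2, at 1641 to 2001 CPM at P0, against 2088 to 2435. They summed to 1889 to 1935 at F3, against 2104 to 2200, and to 1668 to 1999 at F15, against 2301 to 2465. Of the 10 tested in met-2, 1 was called lower at P0, 3 at F3 and 4 at F15, and none was higher. Body muscle markers summed to 48.96 to 168.6 CPM in met-2 at P0, against 7.588 to 11.52 in wild type. In met-2 at F3 they summed to 175.5 to 502.2 CPM, and at F15 they overlapped wild type, at 9.844 to 25.24 against 10.41 to 16.14. Those of SX1263 double mutants summed to less than wild type, at 4.333 to 6.975 CPM at P0, and at 3.122 to 6.215 at F3, against 19.52 to 20.73. Those of set-25 mutants did too, at 3.752 to 5.492 CPM at P0 and 5.352 to 6.434 at F3. Of 4 body muscle markers tested in SX1263 double mutants, 1 was called lower at each generation. In set-25 0 were called at P0 and 1 was lower at F3. Intestine markers summed to 135.4 to 184.9 CPM in F3 double mutants of SX1263, against 41.02 to 47.9 in wild type. In F3 double mutants of EG6089 they summed to 68.38 to 76.51, against 15.83 to 22.21. In met-2 they were also above wild type, at 31.84 to 55.69 CPM at P0, against 15.29 to 20.28, and 77.85 to 215 at F3. At F15 met-2 had 54.54 to 86.96 CPM, against 19.38 to 26.54. In set-25 they overlapped wild type at P0, at 13.99 to 17.49 CPM, and lay below it at F3, at 18.73 to 39.41. These are sums of small RNAs on marker genes, and their part in the results on receptor genes was not tested. In whole animals, fewer cells of a type and fewer small RNAs per cell cannot be told apart.

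Summed over the receptor genes, small RNAs took a smaller share of gene counts in every mutant that lacks met-2. It took 0.5345 ± 0.00661% in met-2 at P0, against 0.5944 ± 0.0172% in wild type, 0.4814 ± 0.0262% at F3, against 0.5526 ± 0.0110%, and 0.4237 ± 0.0323% at F15, against 0.5484 ± 0.0271% (SD, n = 3 each). In SX1263 double mutants the share was 0.4745 ± 0.00623% at P0 and 0.4038 ± 0.0873% at F3, where the libraries held 0.4291, 0.3066 (replicate 2) and 0.4757%. EG6089 double mutants held 0.5217 ± 0.0348% at P0, against 0.6109 ± 0.0364%, and 0.4624 ± 0.00564% at F3, against 0.5361 ± 0.00476%. In each of these 7 comparisons the libraries did not overlap, and the two-sided exact permutation test over libraries gave p = 0.1, the smallest that 3 against 3 libraries allow. In set-25 mutants the share was 0.5605 ± 0.0181% at P0, which overlapped wild type (exact permutation p = 0.2), and 0.5262 ± 0.0134% at F3, which did not (exact permutation p = 0.1).

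The sum without nhr-15, its most abundant member, was also computed, a choice made after its values were seen. It was then 0.376 ± 0.0330% in met-2 at P0, against 0.424 ± 0.0126% in wild type, 0.362 ± 0.0242% at F3, against 0.413 ± 0.00818%, and 0.295 ± 0.0326% at F15, against 0.402 ± 0.0227% (SD, n = 3 each). Met-2 libraries still lay below wild type without overlap at each generation. Double mutants of SX1263 had a sum without nhr-15 of 0.416 ± 0.00674% at P0, with libraries from 0.408 to 0.421% against 0.412 to 0.437% in wild type, and 0.355 ± 0.0844% at F3, with libraries from 0.261 to 0.423% against 0.403 to 0.418%. Both overlapped wild type. In EG6089 it was higher in double mutants, at 0.452 ± 0.0231% at P0, against 0.437 ± 0.0155%, with overlap, and 0.425 ± 0.00713% at F3, against 0.399 ± 0.00192%, without overlap. In set-25 it was 0.467 ± 0.0126% at P0 and 0.446 ± 0.00873% at F3, above every wild-type library. The lower family share of double mutants thus held with nhr-15 and not without it.

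Of the 268 receptor genes with a row, 140 passed the low-count filter in at least 1 comparison of a mutant with wild type among controls, and 77 passed in all 9. The 128 others were too low to test and are not described further by tests. Among the 140, 101 were called in at least 1 of the 9 comparisons, at a Benjamini-Hochberg adjusted p under 0.05 over all genes by edgeR's quasi-likelihood test. That is 72.14% of those tested, close to the 70.92% of all genes, 9198 of 12969, that were called in at least 1 of the 9. Of the 101, 62 were called higher and 42 lower, with nhr-95, nhr-149 and nhr-221 in both counts. On chromosome V 50 of 77 tested receptor genes were called, and on the other chromosomes 51 of 63, a split that was not computed over all genes.

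In met-2 mutants receptor genes changed in both directions. At P0, 19 were higher and 25 lower of 137 tested, against 13.5% and 9.93% of all genes tested. At F3, 23 were higher and 20 lower of 121, against 17.9% and 10.3% of all genes, and at F15, 18 were higher and 23 lower of 99, against 19.1% and 17.4%. The higher calls were thus close to the share over all genes, while the lower calls made up 18.25, 16.53 and 23.23% of the receptor genes tested.

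In double mutants higher calls outnumbered lower ones among receptor genes. In SX1263, 30 were higher and 21 lower of 137 at P0, against 11.2% and 14.1% of all genes tested, and 33 were higher and 21 lower of 121 at F3, against 18.6% and 19.7%. Without replicate 2 of the F3 double mutant, 30 were higher and 19 lower, and 44 of the 54 calls remained. Of 24 named calls there, 21 remained, and those on nhr-79, nhr-13 and nhr-23 were lost. All 6 named differences from met-2 mutants and all 6 from set-25 mutants also remained. The changes without that library were −6.75 for nhr-236, −1.50 for nhr-15, 2.70 for nhr-45, −2.46 for nhr-81, 3.12 for nhr-61 and −1.81 for nhr-221. In EG6089, 23 were higher and 15 lower of 87 at P0, against 18.5% and 27.4% of all genes, and 28 were higher and 21 lower of 84 at F3, against 23.7% and 27.1%. Among receptor genes, the percent called higher was 21.9, 27.27, 26.44 and 33.33 in these 4 comparisons.

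In set-25 mutants few receptor genes changed. At P0, 1 was higher and 2 were lower of 137, against 0.379% and 0.577% of all genes tested, and with the replicate number as a block, which pairs libraries in this comparison, 5 were called. Without set-25 replicate 1, set-25 replicate 3 or wild-type replicate 3, 1 was called. At F3, none was higher and 1 was lower of 121, against 0.498% and 0.612% of all genes. A fit to the set-25 and wild-type F3 controls alone called 12.

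**Figure D2:**
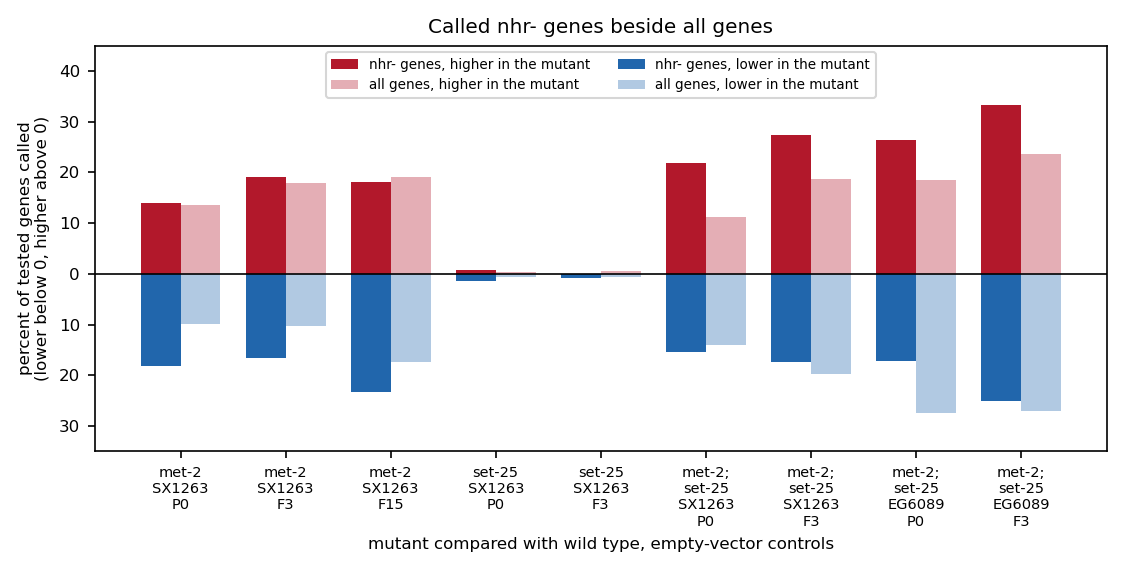
Percent of tested genes called higher (above 0) or lower (below 0) in each mutant compared with wild type among controls, for nuclear hormone receptor genes (dark bars) and for all genes (pale bars). Dark bars reach 33.33% higher in F3 double mutants of EG6089 and stay under 2% in both set-25 comparisons, where at most 3 receptor genes were called.

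The median change of the receptor genes was close to that of all genes in met-2 at P0 (−0.01 against −0.01 on the log2 scale) and F3 (0.09 against 0.03), and lower at F15 (−0.16 against −0.01). It was above that of all genes in double mutants, at 0.24 against 0.01 for SX1263 P0, 0.34 against 0.04 for SX1263 F3, 0.23 against −0.11 for EG6089 P0 and 0.20 against −0.01 for EG6089 F3. In set-25 it was 0.22 against 0.01 at P0 and 0.17 against 0.01 at F3. For EG6089 P0 the median over all genes is −0.106 under TMM and 0.0563 under RLE scaling, a shift of 0.162, and changes there hold relative to that shift.

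A group of 13 receptor genes was lower in met-2 mutants in all 3 generations, of 97 tested in all 3. They were nhr-1, nhr-3, nhr-48, nhr-81, nhr-87, nhr-98, nhr-121, nhr-122, nhr-130, nhr-146, nhr-190, nhr-204 and nhr-221. In double mutants, 13 were lower in both generations of both backgrounds, of 78 tested in all 4 comparisons. These were nhr-1, nhr-3, nhr-15, nhr-49, nhr-81, nhr-87, nhr-90, nhr-98, nhr-121, nhr-130, nhr-146, nhr-190 and nhr-236. The met-2 and double mutants of a generation are compared with the same wild-type libraries, so names found on both lists are given side by side only. How many of all genes were lower in all 3 or in all 4 comparisons was not computed. Whether receptor genes differ in this from all genes was not tested.

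Small RNAs on nhr-81 (I:12327982-12329494, 1591 bp from its neighbour nhr-165) fell in each of these mutants. It had 4.65, 7.84 and 4.08 CPM in met-2 P0 libraries, against 23.2, 25.4 and 25.8 CPM in wild type, a log2 change of −2.17 (SE 0.34, adjusted p = 0.000132). At F15 it had 6.31, 5.91 and 4.31 CPM in met-2, against 24.4, 21.8 and 35.4 in wild type. Every met-2 library thus lay below every wild-type library, and the change was −2.19 at F3 and −2.30 at F15. In EG6089 F3 it had 3.22, 1.97 and 2.55 CPM in double mutants, against 18.2, 33.8 and 32.8 in wild type, a change of −3.43 (SE 0.36, adjusted p = 3.04e-06). The SX1263 double mutants gave −2.63 at P0 and −2.56 at F3, and EG6089 P0 gave −2.99.

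At the left end of chromosome V, nhr-98 (V:453869-457071) and nhr-130 (V:480814-483339) both fell in met-2. The first had 7.01, 7.3 and 7.5 CPM in met-2 P0 libraries, against 24.5, 36.6 and 29.2 in wild type (log2 change −2.05, SE 0.23, adjusted p = 3.01e-06). The other, nhr-130, had 8.34, 7.61 and 7.87 CPM in met-2 at P0, against 25.9, 37.1 and 37.3 in wild type (−2.07, SE 0.22, adjusted p = 1.76e-06). No met-2 library overlapped wild type for either gene. In F15 met-2 mutants the changes were −1.10 for nhr-98 and −2.60 for nhr-130. Double mutants gave −1.82 and −1.42 for nhr-98 and −1.71 and −1.84 for nhr-130 in SX1263, at P0 and F3. In EG6089 nhr-98 changed by −1.90 at each generation, and nhr-130 by −2.15 at P0 and −2.05 at F3. In set-25 mutants neither was called, at 0.02 and −0.10 for nhr-98 and 0.35 and 0.41 for nhr-130.

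On chromosome IV, nhr-87 (IV:1624029-1626705) and nhr-146 (IV:1626805-1630756) lie side by side, and small RNAs on both fell. The values of nhr-146 were 101, 99.1 and 52.5 CPM in met-2 P0 libraries, against 246, 282 and 234 in wild type (−1.59, SE 0.20). At F15 they were 15.9, 18.1 and 7.55 CPM in met-2, against 180, 143 and 191 in wild type (−3.63, SE 0.29, adjusted p = 1.51e-05). The F15 met-2 libraries lay far below those of the other generations. Double mutants differed less, with changes of −0.82 and −1.02 in SX1263 and −0.92 and −0.57 in EG6089 for nhr-146. For nhr-87 met-2 gave −2.22, −2.65 and −2.80 over P0, F3 and F15, and double mutants gave −2.06 and −1.88 in SX1263 and −2.16 and −1.60 in EG6089.

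Other members of the lower group covered a wide range of levels. The gene nhr-121 (III:2449338-2454807) had 1.38, 1.4 and 1.23 CPM in met-2 F3 libraries, against 8.33, 8.32 and 8.16 in wild type (−2.62, SE 0.31, adjusted p = 4.12e-06). On the X chromosome, nhr-3 (X:14558504-14561432) had 62.9, 54.7 and 44 CPM in met-2 P0 libraries, against 146, 119.2 and 124 in wild type (−1.27). Much more abundant, nhr-204 (V:254838-258830) had 274, 394 and 282 CPM in met-2 at P0, against 589, 715 and 607 in wild type (−1.01, SE 0.15, adjusted p = 6.37e-05). All 3 had met-2 libraries below wild type without overlap. At F15 nhr-204 changed by −1.65, and in EG6089 double mutants by −0.21 at P0, which missed the threshold, and −0.30 at F3. For nhr-1, met-2 gave −0.82, −0.86 and −1.80 over P0, F3 and F15, and for nhr-190 it gave −1.36, −1.05 and −1.93.

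Among receptor genes that were higher, 6 were called in met-2 in all 3 generations: nhr-31, nhr-40, nhr-42, nhr-44, nhr-45 and nhr-232. In double mutants 9 were called higher in all 4 comparisons: nhr-8, nhr-11, nhr-31, nhr-40, nhr-42, nhr-45, nhr-47, nhr-79 and nhr-101. The matching counts over all genes were not computed for these lists either. Roles are known for some of the receptors listed. NHR-31 is required for growth of the excretory cell, NHR-40 for muscle development, and NHR-8, related to the insect receptor DHR96 and to the vitamin D receptor, acts in cholesterol balance and in resistance to toxins.

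Small RNAs on nhr-40 (X:2594003-2606732, which overlaps T03G6.7) rose in met-2. They were 91.7, 49.7 and 67.4 CPM in met-2 F3 libraries, against 23.9, 30 and 25.7 in wild type (log2 change 1.39). The P0 libraries had 84.5, 69.8 and 48.2 CPM in met-2, against 38.4, 26.3 and 23.4 in wild type (1.20, SE 0.28, adjusted p = 0.00469). Groups did not overlap at either generation. The change was 0.80 at F15, 1.75 and 1.68 in SX1263 double mutants and 1.05 and 0.98 in EG6089 double mutants. In set-25 it was 0.55 and 0.35, which missed the threshold.

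From a lower level, nhr-45 (X:4656433-4660318) had 12.4, 7.29 and 8.8 CPM in met-2 F15 libraries, against 0.581, 0.723 and 1.01 in wild type (3.55, SE 0.49, adjusted p = 0.000374). At F3 it had 4.89, 6.28 and 7.11 CPM in met-2, against 0.746, 1.06 and 0.868 in wild type (2.76, SE 0.31, adjusted p = 3.08e-06). No met-2 library came near the wild-type range. In double mutants nhr-45 rose by 1.72 and 2.58 in SX1263 and by 1.67 and 2.13 in EG6089. The gene nhr-79 had 12.1, 14.9 and 9.03 CPM in met-2 P0 libraries, against 1.05, 1.22 and 0.99 in wild type (3.45, SE 0.31, adjusted p = 2.56e-07). It was not called at F15 (1.36). In double mutants it rose by 2.25 and 2.0 in SX1263 and by 2.10 and 2.37 in EG6089, and the SX1263 F3 call was lost without double-mutant replicate 2 (1.5) or wild-type replicate 1 (1.56).

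The gene nhr-42 (V:6998819-7000651) rose by 1.17, 1.32 and 1.13 in met-2 over P0, F3 and F15. In EG6089 P0 it had 15.9, 23.9 and 13.7 CPM in double mutants, against 1.92, 3.61 and 1.99 in wild type (2.83), and the change was 2.47 at F3. Double mutants of SX1263 gave 0.95 and 1.18, with touching libraries at F3. Small RNAs on nhr-31 (IV:8022655-8029513) stayed between group means of 0.31 and 5.13 CPM, and its changes were 1.31, 0.93 and 2.06 in met-2, 1.77 and 2.11 in SX1263 double mutants and 3.10 and 2.21 in EG6089 double mutants. For nhr-232 the met-2 calls at P0 (2.02) and F3 (1.87) were lost without met-2 replicate 2, at 1.3 and 1.25, and the P0 call also without wild-type replicate 2 or 3.

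**Figure D3:**
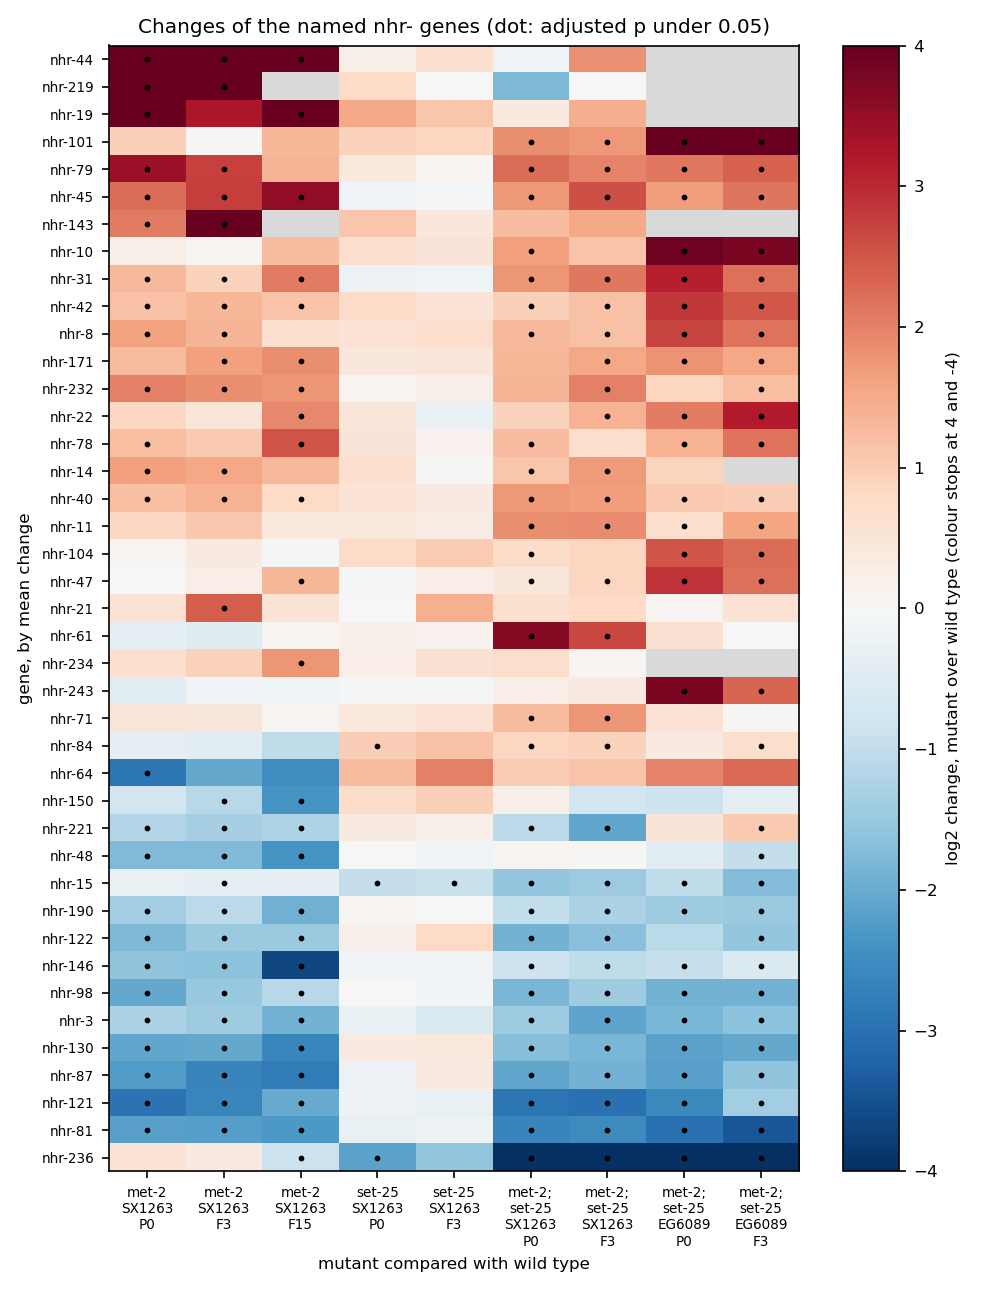
Log2 change of the named nuclear hormone receptor genes (rows, by mean change) in each mutant over wild type among controls (columns), with red for higher and blue for lower. Dots mark an adjusted p under 0.05, grey marks genes not tested, and the colour scale stops at 4 and −4, which nhr-44 (7.63 in met-2 P0) and nhr-236 (−6.74 in SX1263 P0 double mutants) pass.

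The largest fall among receptor genes tested against wild type was on nhr-236 (IV:2327126-2329640), a receptor of unassigned role, in double mutants. In SX1263 P0 it had 1.19, 0.813 and 1.19 CPM in double mutants, against 141, 112 and 92.8 CPM in wild type (log2 change −6.74, SE 0.44, adjusted p = 8.18e-09). The F3 values were 1.43, 2.08 and 0.975 CPM in double mutants, against 134, 135 and 115 in wild type (−6.54, SE 0.65, adjusted p = 6.6e-07). In EG6089 F3 it had 0.403, 2.75 and 0.364 CPM in double mutants, against 158, 136 and 132 in wild type (−7.17, SE 0.34, adjusted p = 2.74e-09). No double-mutant library exceeded 3 CPM in either background, and EG6089 P0 gave −6.93. Libraries of the anti-GFP line, which are separate from these, had 0.845, 1.53 and 2.07 CPM in SX1263 F3 double mutants, against 126, 116 and 153 in wild type.

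Single mutants differed from each other at nhr-236. In set-25 P0 libraries it had 31, 27.1 and 20 CPM, below every wild-type library (−2.15, SE 0.33, adjusted p = 0.00164). In F3 it had 30.8, 44.2 and 52.5 CPM in set-25, again without overlap, but the change of −1.59 (SE 0.45) missed the threshold (adjusted p = 0.107). In met-2 it had 133, 192 and 187 CPM at P0 (0.57, adjusted p = 0.214) and 101, 182 and 205 at F3 (0.34). At F15 met-2 had 75.9, 83.5 and 96.8 CPM, against 166, 126 and 175 in wild type (−0.87, SE 0.21, adjusted p = 0.00978). Tested directly, double mutants differed from set-25 mutants by −4.59 at P0 (SE 0.42, adjusted p = 6.2e-07) and −4.96 at F3 (SE 0.64, adjusted p = 1.8e-05). Against met-2 mutants the difference was −7.31 at P0 (SE 0.44, adjusted p = 4.1e-09) and −6.89 at F3 (SE 0.65, adjusted p = 6.46e-07).

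The most abundant member, nhr-15, also fell in set-25 and further in double mutants. In SX1263 P0 it had 580.1, 634.1 and 593.6 CPM in double mutants, 828.8, 1056 and 922.5 in set-25 mutants, and 1483, 2041 and 1916 in wild type. The change was −1.59 in double mutants (SE 0.18, adjusted p = 5.29e-06) and −0.95 in set-25 (SE 0.18, adjusted p = 0.0106). The set-25 P0 call was lost in a fit to those 2 groups alone, and without set-25 replicate 1, set-25 replicate 3 or wild-type replicate 3. At F3 it had 457.9, 570.9 and 577.8 CPM in double mutants, 693.4, 801.3 and 879.8 in set-25 mutants, and 1392, 1468 and 1525 in wild type. Double mutants lay below set-25 mutants and these below wild type at each generation, with no overlap. The F3 changes were −1.45 (SE 0.13, adjusted p = 2.57e-07) in double mutants and −0.88 (SE 0.13, adjusted p = 0.00116) in set-25. The direct difference of double from set-25 mutants was −0.63 at P0 (adjusted p = 0.0171) and −0.56 at F3 (adjusted p = 0.00303).

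In met-2 alone nhr-15 moved little. It had 1225, 1427 and 1806 CPM at P0, which overlapped wild type (−0.29), and 1136, 1032 and 1216 CPM at F3 (−0.37, SE 0.13, adjusted p = 0.039). In EG6089 F3 it had 385.8, 390.6 and 404.8 CPM in double mutants, against 1385, 1318 and 1199 in wild type, without overlap (−1.72, SE 0.11, adjusted p = 1.36e-08). At EG6089 P0 it had 624.3, 1039 and 662.9 CPM in double mutants, against 1416, 1954 and 1354 in wild type (−1.02, SE 0.25, adjusted p = 0.00319).

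One receptor gene, nhr-84 (V:15876732-15879608, 324 bp from nhr-102), was higher in set-25. It had 143, 151 and 139 CPM in set-25 P0 libraries, against 69.7, 82.7 and 67.7 in wild type (0.98, SE 0.23, adjusted p = 0.0479). Groups did not overlap, but the call was lost without any 1 of the 6 libraries and under RLE scaling. The F3 values were 183, 199 and 135 CPM in set-25 (1.18, adjusted p = 0.132). Double mutants of SX1263 gave 0.87 at P0 (adjusted p = 0.00872) and 0.91 at F3 (adjusted p = 0.0435). Double mutants exceeded met-2 mutants by 1.23 at P0 (adjusted p = 0.000853) and 1.36 at F3 (adjusted p = 0.00811), and their difference from set-25 mutants, −0.11 and −0.26, missed the threshold.

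**Figure D4:**
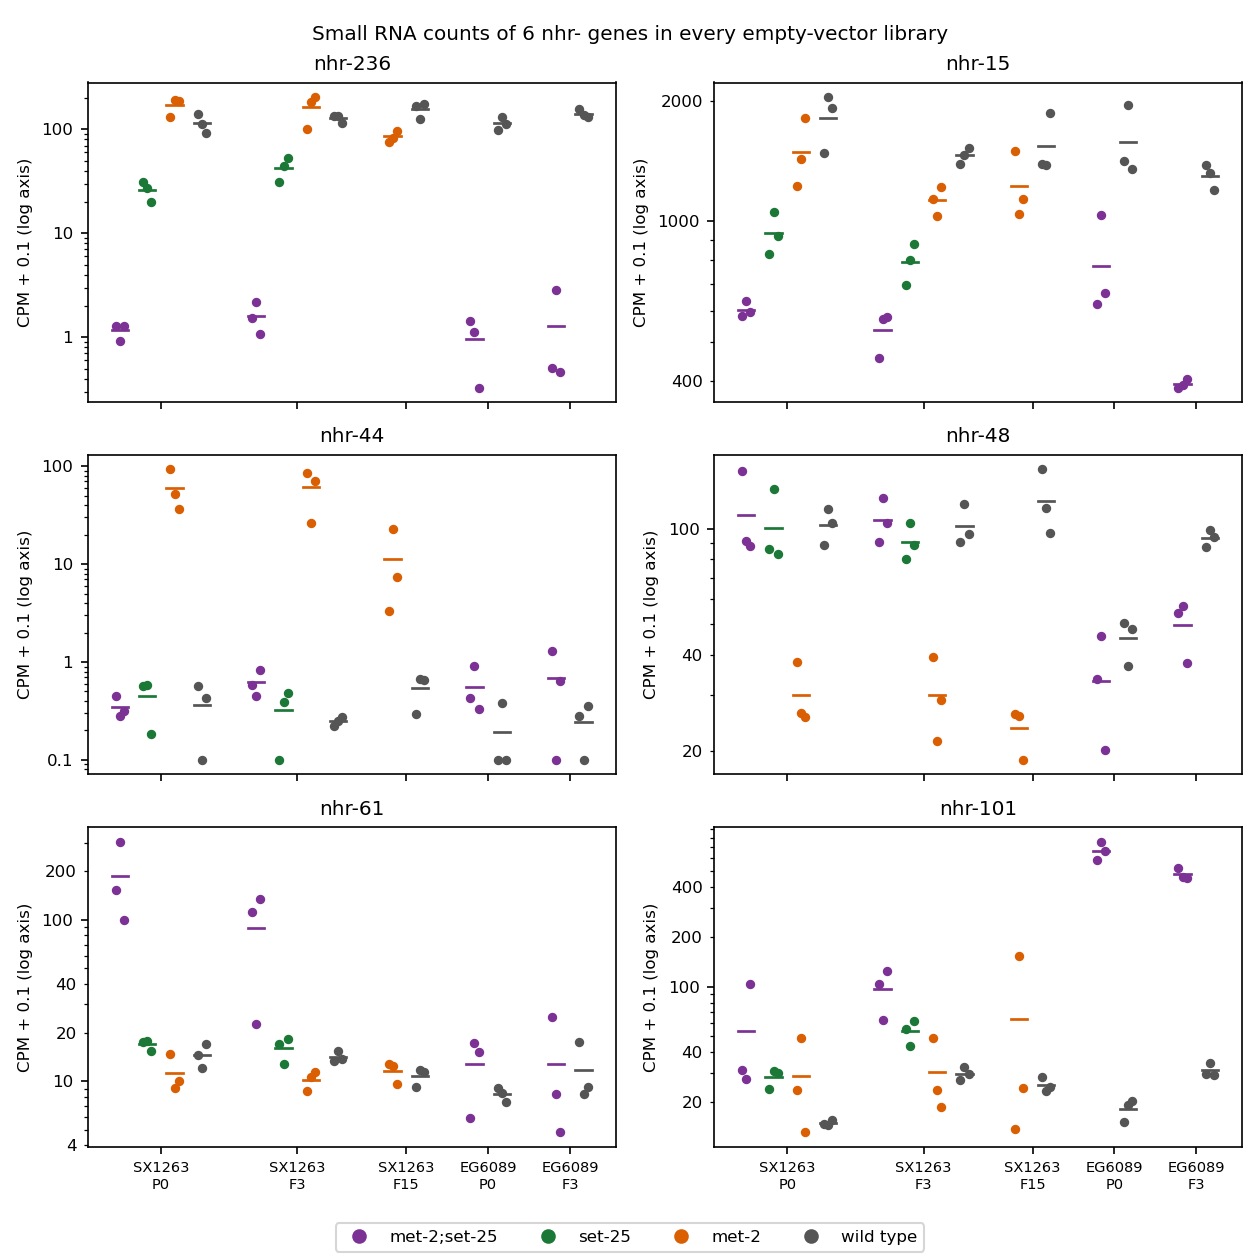
Level of 6 nuclear hormone receptor genes in every empty-vector control library (points, CPM + 0.1 on a log axis), by background, generation and genotype, with bars at the group means. Double mutants sit near 1 CPM for nhr-236 where wild type sits near 100, met-2 mutants alone are high for nhr-44 and low for nhr-48 in SX1263, and nhr-101 is highest in EG6089 double mutants.

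Some receptor genes changed in met-2 and not, or far less, in SX1263 double mutants. A direct comparison of double with met-2 mutants called 14 receptor genes higher and 8 lower at P0, against 6.31% and 10.3% of all genes tested. At F3 it called 11 higher and 8 lower, against 9.24% and 15.6% of all genes.

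On the middle of chromosome V, nhr-44 (V:8961878-8964105) had many small RNAs in met-2 and almost none in wild type. It had 92.7, 52.3 and 36.4 CPM in met-2 P0 libraries, against 0.466, 0 and 0.33 CPM in wild type (7.63, SE 0.67, adjusted p = 1.74e-07). At F3 it had 85.6, 26.2 and 69.9 CPM in met-2, against 0.124, 0.151 and 0.174 in wild type. That is 1259 counts in met-2 against 3 in wild type, a ratio of 407.5 with a counting interval from 139.1 to 1979. The gene was also high in met-2 F3 libraries of the anti-GFP line, at 78.2, 43.7 and 39.6 CPM, against 0.521, 0.294 and 0.282 in wild type (7.12). In double mutants it stayed far below met-2, at 0.349, 0.181 and 0.217 CPM at P0 and 0.476, 0.347 and 0.731 at F3. Those F3 libraries all lay above the wild-type ones. Double mutants differed from met-2 by −7.81 at P0 and −6.70 at F3. At F15 met-2 had 3.24, 22.6 and 7.37 CPM, against 0.194, 0.578 and 0.561 in wild type (4.50, SE 1.22, adjusted p = 0.0165), and that call was lost without met-2 replicate 2 or any 1 wild-type library. On the opposite strand nhr-44 overlaps ttc-17, whose small RNAs changed by 0.33 in met-2 at F3 (adjusted p = 0.0155).

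The next gene, nhr-219 (V:8964662-8966186, 557 bp away), had the same pattern. It had 14.4, 15.8 and 11.2 CPM in met-2 P0 libraries, against 0, 0.102 and 0 CPM in wild type. The counts were 554 in met-2 and 1 in wild type, a ratio of 495.9 with a counting interval from 88.63 to 1.962e+04. In F3 it had 26.6, 2.37 and 19.3 CPM in met-2 and no count in wild type, at least 109-fold higher when 3 counts are set for the whole wild-type group. By F15 met-2 had 0.682, 0.394 and 0.719 CPM, too low to test, and it had no count in any EG6089 control library.

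Further along, nhr-143 (V:8973014-8974939) had 14.7, 1.4 and 2.33 CPM in met-2 F3 libraries, against 0.124, 0.454 and 0.521 in wild type (4.06, SE 0.81, adjusted p = 0.000913). Replicate 1 was far above the others, and the call was lost in a fit to those 2 groups alone (4.04, adjusted p = 0.058). Its neighbour nhr-195, named after its values were seen, had 5.96, 0.419 and 0.958 CPM in met-2 at F3, against 0.249, 0.151 and 0.174 in wild type (3.52, adjusted p = 0.00927). Between V:8900000 and V:9000000, a window chosen after seeing values, all 4 receptor genes tested at F3 and 5 of the 8 other genes were called higher in met-2. Among the 8 others, F59E11.8, which lies between the receptor genes and which RefSeq lists as the pseudogene nhr-194, changed by 3.44 (adjusted p = 0.000154). The gene gck-1, next to nhr-44 on its outer side, changed by 0.02. In SX1263 F3 double mutants 1 of the 4 receptor genes and 1 of the 8 others of this window were called higher. The median changes there were 1.67 and 0.34.

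On chromosome II, nhr-19, which overlaps mrpl-53 on the other strand, had 22.9, 6.07 and 1.09 CPM in met-2 P0 libraries, against 0.233, 0.306 and 0.33 in wild type (5.10, SE 0.99, adjusted p = 0.000907). At F15 it had 1.36, 8.47 and 13.7 CPM in met-2, against 0.194, 0.434 and 0.112 (4.91, SE 0.87, adjusted p = 0.00172). Every met-2 library was above wild type, with a wide spread among met-2 libraries. At F3 the change of 3.22 missed the threshold (adjusted p = 0.0593).

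In the opposite direction, nhr-48 (X:15708213-15716875), which belongs to the same receptor group as nhr-8 and daf-12, fell in met-2 and, in SX1263, was not called in double mutants. It had 38.1, 26.4 and 25.5 CPM in met-2 P0 libraries, against 88.4, 115 and 103.8 in wild type (−1.77, SE 0.24, adjusted p = 3.1e-05). At F15 it had 26.1, 25.8 and 18.7 CPM in met-2, against 153, 116 and 96.5 in wild type (−2.37, SE 0.21, adjusted p = 2.32e-05), and F3 gave −1.77. Groups did not overlap at any of these generations. In SX1263 double mutants it had 151, 91.5 and 88.1 CPM at P0 (0.11) and 90.3, 124 and 103.8 at F3 (0.05), which overlapped wild type. The direct difference of double from met-2 mutants was 1.88 at P0 (adjusted p = 2.72e-05) and 1.82 at F3 (adjusted p = 0.000938). In EG6089 F3 it had 54.4, 57 and 37.6 CPM in double mutants, against 87.6, 99 and 94.3 in wild type (−0.94, adjusted p = 7.66e-05).

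For nhr-64 (I:3101851-3109621) met-2 P0 libraries had 5.31, 5.15 and 5.03 CPM, against 67.1, 20 and 28 in wild type (−2.90, SE 0.43, adjusted p = 7.46e-05). The spread among wild-type libraries was wide at all generations, and the changes at F3 (−2.05, adjusted p = 0.0574) and F15 (−2.49, adjusted p = 0.0525) missed the threshold by edgeR and passed it by DESeq2. SX1263 double mutants exceeded met-2 mutants by 3.91 at P0 (adjusted p = 7.43e-06) and 3.19 at F3 (adjusted p = 0.00622).

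Compared with set-25 mutants, double mutants had 13 receptor genes called higher and 20 lower at P0, against 8.27% and 11.5% of all genes tested. At F3 they had 20 higher and 22 lower, against 14.2% and 17.3%. One of these was nhr-61 (II:14816136-14818543, which overlaps W01D2.1 on the other strand). It had 153, 304 and 99.2 CPM in SX1263 P0 double mutants, against 14.4, 12 and 16.9 in wild type (3.68, SE 0.50, adjusted p = 3.19e-05). The F3 double mutants had 22.5 CPM in replicate 2, 135 in replicate 3 and a level between these in replicate 1, against 13.2, 15.3 and 13.7 in wild type (2.68, SE 0.57, adjusted p = 0.00128). All double-mutant libraries were above wild type, replicate 2 of F3 by the least. Double mutants exceeded met-2 mutants by 4.05 at P0 (adjusted p = 1.8e-05) and 3.15 at F3 (adjusted p = 0.000757), and set-25 mutants by 3.46 (adjusted p = 7.81e-05) and 2.50 (adjusted p = 0.00241). In EG6089 nhr-61 was not called, and P0 double mutants had 5.82, 17.1 and 15.1 CPM, against 9.03, 8.34 and 7.29 in wild type (0.61), while F3 gave −0.03. The difference between backgrounds was not tested.

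Other receptor genes changed more in EG6089 double mutants than in SX1263 ones. Here too, that difference was not tested. The backgrounds also differ in their counting records. Records set aside as ambiguous between genes were 0.664 to 0.838% in EG6089 and 0.0150 to 0.0377% in SX1263. Records on no gene were 17.6 to 27.3% and 27.9 to 42.9%. What part this has in differences between backgrounds, above all for genes that overlap others, was not tested. The gene nhr-101 (V:11570476-11572549) lies 891 bp from nhr-68 and overlaps pms-2 and H12C20.7 on the other strand. It had 585, 756 and 661 CPM in EG6089 P0 double mutants, against 15.1, 19.2 and 20.1 in wild type (5.20, SE 0.24, adjusted p = 8.68e-10). The F3 values were 524, 464 and 458 CPM in double mutants, against 29.4, 34.5 and 29.2 in wild type (3.96, SE 0.11, adjusted p = 4.06e-12). Libraries were tight and far apart, while pms-2 changed by 0.08 at each generation and was not called. In SX1263 P0 nhr-101 had 31.2, 27.5 and 103.7 CPM in double mutants, against 14.7, 14.4 and 15.4 in wild type (1.86, adjusted p = 0.00817), and the call was lost without double-mutant replicate 3 (1.00). The SX1263 F3 change of 1.72 (adjusted p = 0.0486) was lost without any 1 library but double-mutant replicate 2, and with no low-count filter.

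The gene nhr-10 (III:7112295-7115438) encodes a receptor that, with NHR-68, turns on the propionate shunt when vitamin B12 is low. It had 308, 317 and 250 CPM in EG6089 F3 double mutants, against 19.5, 24.1 and 20.8 in wild type (3.77, SE 0.12, adjusted p = 7.24e-12). At P0 it had 266, 349 and 327 CPM in double mutants, against 17.8, 22 and 23.6 in wild type (3.89, SE 0.24, adjusted p = 7.16e-09). Groups were far apart with no overlap. In SX1263 the double mutants had 30, 45.9 and 112 CPM at P0, against 19, 23.5 and 17.9 in wild type (1.64, adjusted p = 0.00388), and at F3 the change of 1.15 missed the threshold (adjusted p = 0.0906). The gene nhr-68 itself was not called in any comparison of control mutants with wild type, except in SX1263 P0 double mutants with the replicate block (1.34) or without wild-type replicate 2, and in met-2 at F3 without met-2 replicate 3 (1.41).

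Of receptors without an assigned role, nhr-243 had 74.6, 91.4 and 63.5 CPM in EG6089 P0 double mutants, against 6.57, 3.61 and 6.63 in wild type (3.75), and 2.33 was its change at F3. Its changes in SX1263 double mutants, 0.26 and 0.35, missed the threshold. In EG6089 P0 nhr-47 had 126, 158 and 207 CPM in double mutants, against 16.7, 24.5 and 24.5 in wild type (2.90), and its F3 change was 2.21. In SX1263 it was called at 0.46 and 0.86, with overlapping libraries at P0. Only nhr-221 was called in opposite directions in F3 double mutants of the backgrounds, at −2.06 in SX1263 and 1.05 in EG6089, where it had 16.5, 19.6 and 13.3 CPM in double mutants, against 7.58, 9 and 7.12 in wild type (adjusted p = 0.00185).

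**Figure D5:**
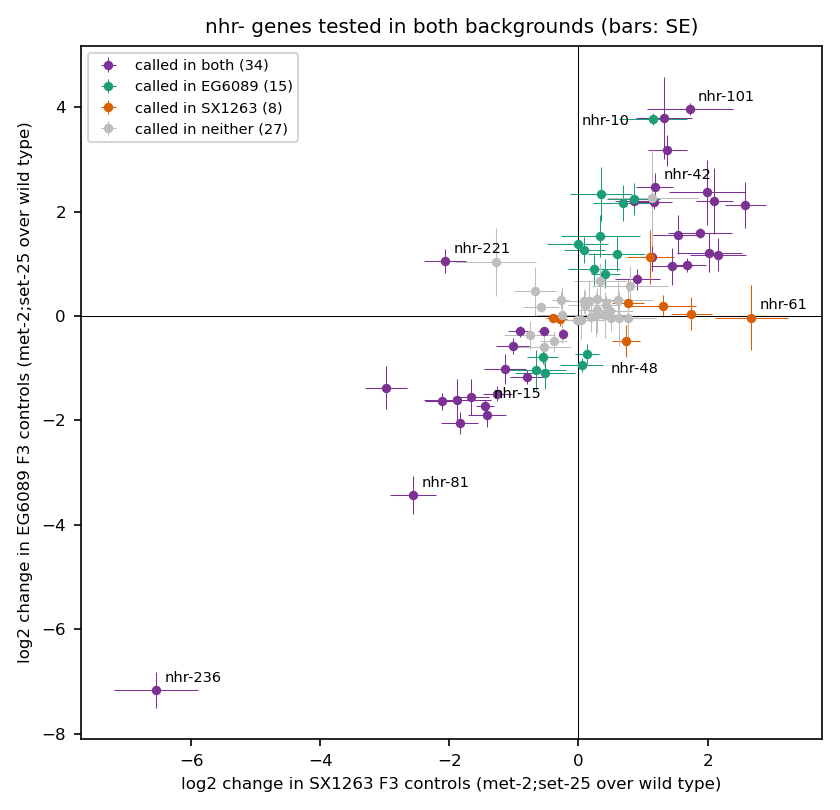
Log2 change in F3 double mutants over wild type in SX1263 (horizontal axis) and EG6089 (vertical axis) for the 84 nuclear hormone receptor genes tested in both, with SE as bars. Of these, 34 were called in both, 15 in EG6089 alone, 8 in SX1263 alone and 27 in neither, and nhr-236 lies lowest on both axes.

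At F3 the backgrounds share no libraries. Of receptor genes tested in both, 16 were called lower in both, which is 84.21% of the SX1263 calls and 76.19% of the EG6089 calls, and 17 were called higher in both, 73.91% and 60.71%. Over all genes tested in both, the shared lower calls were 78.45% and 67.05% and the shared higher calls 63.6% and 49.1%. At P0, 14 receptor genes were lower in both (77.78% and 93.33%) and 15 higher in both (60% and 65.22%), against 82.9% and 53.4% lower and 72.3% and 46.6% higher over all genes.

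Of the receptors with a known metabolic role, some were called in met-2 at P0 and F3 and in double mutants. This list of 13 genes had 3 higher and 1 lower of 12 tested in met-2 at P0, 2 higher and none lower of 11 at F3, and none of 10 at F15. In SX1263 double mutants it had 4 higher and 1 lower of 12 at P0 and 4 higher and 2 lower of 11 at F3, and in EG6089 2 higher and 1 lower of 8 at P0 and 4 higher and 3 lower of 8 at F3. In set-25 none was called in the fits over all groups of a generation. An edgeR fit to the set-25 and wild-type F3 controls alone called nhr-8 (0.72, adjusted p = 0.00647) and nhr-114 (−1.45, adjusted p = 0.0278). The list's median log2 change was 0.13, 0.10 and 0.00 in met-2 over P0, F3 and F15, and 0.48 and 0.20 in set-25. It was 0.72 and 1.13 in SX1263 double mutants, against 0.01 and 0.04 over all genes tested, and 0.87 and 1.17 in EG6089 ones, against −0.11 and −0.01. Over all genes, 13.5% were called higher and 9.93% lower in met-2 at P0, 17.9% and 10.3% at F3, and 19.1% and 17.4% at F15. In SX1263 double mutants the shares were 11.2% and 14.1% at P0 and 18.6% and 19.7% at F3. Those in EG6089 were 18.5% and 27.4% at P0 and 23.7% and 27.1% at F3. In set-25 they were 0.379% and 0.577% at P0 and 0.498% and 0.612% at F3. With 8 to 12 genes tested, the counts and medians of this list are a description only.

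NHR-49 is the worm's HNF4-type regulator of fat use. Small RNAs on nhr-49 were 58.8, 68 and 57.4 CPM in SX1263 P0 double mutants, against 82.3, 101 and 101 in wild type (−0.62, SE 0.10, adjusted p = 0.000207). At F3 they were 68.1, 60.4 and 65.3 CPM in double mutants, against 95.2, 92.8 and 93.5 in wild type (−0.54, SE 0.09, adjusted p = 0.000104). Groups did not overlap at either generation. The EG6089 change was −0.29 at F3 (adjusted p = 0.0073) and −0.47 at P0 (adjusted p = 0.0382), and the P0 call was lost under every alternative fit but the replicate block, and without double-mutant replicate 2 (−0.24) or any 1 wild-type library. In met-2 the changes of −0.20, 0.01 and 0.04 missed the threshold. Its partner genes differed from each other. The gene nhr-80, which acts in fatty acid desaturation, was higher by 1.63 in met-2 at P0 and by 1.63 and 1.90 in SX1263 double mutants. Its level was low, at a mean of 0.428 CPM over SX1263 wild-type controls, within the range of the 3-count floor. The gene nhr-66 changed by −0.24 in SX1263 and −0.34 in EG6089 F3 double mutants. With the replicate block nhr-66 was also called in SX1263 P0 double mutants (−0.33). The nhr-80 call in met-2 was lost without met-2 replicate 1 (1.31), and its F3 double-mutant call without any of 4 libraries, replicates 1 and 3 of either group (1.52 to 1.91). The partner nhr-13 was higher by 1.14 in EG6089 F3 double mutants, and its SX1263 F3 change of 1.13 was lost without double-mutant replicate 2 (0.36). For nhr-114, which adapts the germ line to diet, EG6089 F3 double mutants gave 1.20.

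The receptors with insect or vertebrate counterparts, a list of 11, had 2 higher and 3 lower of 9 tested in met-2 at P0, 2 higher and 1 lower of 9 at F3, and 2 lower of 7 at F15. SX1263 double mutants had 3 higher and 1 lower of 9 at P0 and 2 higher and 1 lower of 9 at F3, EG6089 had 2 higher of 6 at P0 and 2 higher and 1 lower of 6 at F3, and set-25 had none of 9. The fit to the set-25 and wild-type F3 controls alone called nhr-8 (0.72). With 6 to 9 genes tested, these counts stand beside the all-gene shares given for the metabolic receptors and are a description only. The median change over this list was 0.19, 0.09 and −0.36 in met-2, 0.24 and 0.09 in SX1263 double mutants, 0.43 and 0.53 in EG6089 double mutants, and 0.39 and −0.14 in set-25, beside all-gene medians between −0.11 and 0.04.

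In this list nhr-8 (IV:7710983-7714210) changed most in EG6089. It had 211, 295 and 227 CPM in EG6089 P0 double mutants, against 29.8, 48.9 and 34.2 in wild type (2.70, SE 0.25, adjusted p = 5.29e-07). At F3 it had 162, 166 and 181 CPM in double mutants, against 41.4, 35.6 and 34.8 in wild type (2.18, adjusted p = 3.7e-09). In met-2 F3 libraries it had 192, 137 and 320 CPM, against 71.6, 90.8 and 91.1 in wild type (1.36, adjusted p = 0.00121). The groups were separate in all of these, and SX1263 double mutants gave 1.29 at P0 and 1.17 at F3. The gene overlaps F33D4.6 on the other strand. Small RNAs on F33D4.6 averaged 160 CPM in met-2 F3 libraries, against 1.54 in wild type (6.67), while its changes in SX1263 double mutants, 0.79 and 1.03, missed the threshold. Reads of the overlapping genes could not be told apart without the strand.

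NHR-25, the worm SF-1 counterpart that acts in molting and vulva formation, was represented by few small RNAs, with every control group mean under 5 CPM. Its gene rose by 1.24 and 2.06 in met-2 at P0 and F3 and by 1.81 and 2.61 in SX1263 double mutants, and was not called in EG6089. The met-2 F3 call was lost without met-2 replicate 3 (1.47) or wild-type replicate 2 (1.66). For nhr-23, the counterpart of ROR that drives molting, changes were small: −0.33 in met-2 at P0, −0.36 at F15 and −0.39 in SX1263 F3 double mutants. These calls were lost in fits to the 2 compared groups alone, and with the replicate block nhr-23 was called in SX1263 P0 double mutants too (−0.25). The NR4A counterpart nhr-6, which is needed for the spermatheca, rose by 1.42 and 1.26 in EG6089 double mutants. By the edgeR test as described, no comparison of control mutants with wild type called nhr-2, nhr-41, nhr-57, nhr-85 or nhr-86, and nhr-62 and nhr-67 were too low to test. Alternatives called some of them. The replicate block called nhr-41 in SX1263 P0 double mutants (0.83) and nhr-2 in met-2 at P0 (−0.65, where the numbers do not pair libraries), and DESeq2 called nhr-86 in EG6089 P0 double mutants (0.37). Without 1 library, nhr-57 was called in met-2 at P0 (−1.26), nhr-2 in met-2 at F3 (−0.54) and nhr-85 in SX1263 F3 double mutants (−1.35, without replicate 2).

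Genes that work with these receptors were described by the same measure. Of 12 coregulator and hormone-synthesis genes, 4, 5 and 6 of 9 tested were higher in met-2 at P0, F3 and F15, 2 and 4 of 9 in SX1263 double mutants, 7 of 9 and 3 of 8 in EG6089 double mutants and none in set-25, and none was lower. The same call fell on 13.5%, 17.9% and 19.1% of all genes in met-2, 11.2% and 18.6% in SX1263 double mutants and 18.5% and 23.7% in EG6089 double mutants. The list's median change was 0.63, 0.69 and 0.85 in met-2, 0.60 and 0.67 in SX1263 double mutants and 1.79 and 0.99 in EG6089 double mutants. Among them daf-36, which makes the first step of dafachronic acid synthesis, averaged 3.12 ± 0.590 CPM in met-2 P0 libraries and 0.764 ± 0.0899 CPM in wild type (2.0). The sterol transporter gene ncr-1 rose by 1.89, 2.33 and 2.13 in met-2, and the Mediator subunit gene mdt-15, a coactivator of NHR-49, was never called, at 113 ± 3.27 CPM in met-2 P0 libraries and 117 ± 5.77 CPM in wild type (SD, n = 3). The dafachronic acid receptor gene daf-12, which lacks the nhr- name, averaged 2.86 ± 0.525 CPM in met-2 P0 libraries and 0.552 ± 0.246 CPM in wild type (2.29), and was called higher in all comparisons of met-2 or double mutants with wild type controls.

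Of 20 listed target genes, 4 of 16, 4 of 17 and 3 of 13 tested were higher in met-2 over P0, F3 and F15, with none lower. In SX1263 double mutants 3 were higher and 1 lower of 16 at P0, and 5 were higher of 17 at F3. In EG6089 4 were higher and 1 lower of 14 at P0, and 5 were higher of 12 at F3. Set beside the all-gene shares just given, these are few genes in each comparison, and the median change of the list was 0.12, 0.17 and 0.01 in met-2, 0.39 and 0.72 in SX1263 double mutants and 0.21 and 0.32 in EG6089 double mutants. In set-25 none was called. The delta-12 desaturase gene fat-2 averaged 295 ± 58.3 CPM in met-2 P0 libraries and 46.3 ± 5.20 CPM in wild type (2.67, SE 0.21, adjusted p = 3.99e-08). Its changes were 2.83 and 2.49 in met-2 at F3 and F15, 2.76 and 3.19 in SX1263 double mutants and 2.52 and 2.48 in EG6089 double mutants. All of these are counts of small RNAs on the target genes, not their expression.

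Among receptor genes, the median change differed between chromosome V and the other chromosomes, in a direction that varied between comparisons. In met-2, receptor genes of chromosome V had 8 higher and 14 lower of 74 tested at P0 with a median change of −0.26, while the other chromosomes had 11 of each of 63 with a median of 0.24. At F15 the medians were −0.45 over 48 tested on chromosome V and 0.09 over 51 elsewhere, and at F3 they were 0.00 over 65 and 0.17 over 56. The medians in SX1263 double mutants were 0.15 on chromosome V and 0.38 elsewhere at P0, and 0.35 and 0.26 at F3. In EG6089 double mutants they were 0.15 and 0.46 at P0, and 0.29 and 0.17 at F3. The median on chromosome V was thus the higher one in F3 double mutants of both backgrounds. The same split was not computed over all genes, so whether it is particular to receptor genes was not tested. In the first 1000000 bp of chromosome V, a window chosen after seeing values, none was higher and 8 were lower of 16 receptor genes tested in met-2 at P0, none and 8 of 14 at F3, and none and 6 of 12 at F15. Other genes of that window had 9 higher and 25 lower of 81 at P0, 9 higher and 19 lower of 72 at F3, and 12 higher and 19 lower of 64 at F15. Double mutants of SX1263 had 3 receptor genes higher and 9 lower of 16 there at P0, against 12 and 20 of 81 others, and none was higher and 8 were lower of 14 at F3, against 12 and 23 of 72 others. In EG6089 double mutants the receptor genes there had none higher and 6 lower of 14 at P0, against 13 and 21 of 61 others, and none and 6 of 10 at F3, against 16 and 25 of 59 others.

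Feeding against GFP gave no called receptor gene. In all 14 comparisons of the anti-GFP with the control line, edgeR's quasi-likelihood test called 0 receptor genes. The same test called 0.0079% of all genes in each of the 4 genotypes at SX1263 P0. At SX1263 F3 it called 0.131% of all genes in met-2, 0.0% in set-25, 0.0962% in double mutants and 0.00874% in wild type, and at F15 0.0937% in met-2 and 0.0% in wild type. In EG6089 it called 0.011% at P0 in each genotype, and 0.0224% in double mutants and 0.0112% in wild type at F3. At an unadjusted p under 0.05 between 0 and 15 receptor genes passed per comparison, and DESeq2 called 2 in F3 double mutants of SX1263 and 0 in the 13 others.

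Mutant comparisons repeated within the anti-GFP line use separate libraries from those of the control line. At F3, met-2 had 18 receptor genes higher and 28 lower, against 15.8% and 12.8% of all genes tested. SX1263 double mutants had 28 higher and 18 lower, against 16.3% and 16.5%, and EG6089 double mutants had 28 higher and 18 lower, against 23.1% and 27.2%. In met-2, 18 genes were lower in both lines, 90% of the control calls and 64.29% of the anti-GFP calls, and 16 were higher in both, 69.57% and 88.89%. In SX1263 double mutants 18 were lower in both (85.71% and 100%) and 19 higher in both (57.58% and 67.86%), and in EG6089 17 were lower (80.95% and 94.44%) and 21 higher (75% of each). Over all genes the same shares were 88.9% and 71.2% lower and 70.8% and 80.3% higher in met-2, 70.1% and 84.0% lower and 63.7% and 72.6% higher in SX1263 double mutants, and 86.36% and 86.04% lower and 81.7% and 83.9% higher in EG6089. No gene was called in opposite directions between lines in any of these 3.

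Across generations within a genotype, receptor genes were called in met-2 at F15, in double mutants of both backgrounds and in EG6089 wild type, and each count stands beside the share of all genes called. CPM in these comparisons come from fits over all groups of a background, scaled together, and differ from those above. In F15 met-2 compared with F3 met-2, 7 were higher and 19 lower of 145 tested, against 6.57% and 10.9% of all genes, and without met-2 F15 replicate 2 the 26 calls became 17. In F3 compared with P0 no receptor gene was called by edgeR in met-2, set-25 or wild type of SX1263, against 0.378%, 0.323% and 0.905% of all genes. At an unadjusted p under 0.05, 14, 14 and 17 passed, and DESeq2 called 0, 1 and 2. In F15 compared with F3 wild type none was called, against 0.456% of all genes, with 10 at an unadjusted p under 0.05 and 1 by DESeq2. SX1263 double mutants had none higher and 2 lower, nhr-234 (−1.73) and nhr-204 (−0.57), against 5.31% of all genes in either direction. Without double-mutant F3 replicate 2, P0 replicate 1 or P0 replicate 2, none was called there.

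The genes that moved between F15 and F3 in met-2 include members of the groups above. Small RNAs on nhr-146 were 15, 17.3 and 6.95 CPM in F15 met-2 libraries, against 92.8, 42 and 62.7 in F3 (−2.33, adjusted p = 8.63e-09). Those on nhr-219 were 0.647, 0.376 and 0.662 CPM in F15, against 25.1, 2.39 and 18.5 in F3 (−4.72), and nhr-44 changed by −2.48. The high small RNA levels of the chromosome V cluster were thus lower at F15, in libraries that did not overlap for nhr-219 or nhr-44. Neither of these genes was called in the test of a changed met-2 effect given below. In the other direction nhr-229 had 299, 428 and 628 CPM in F15, against 172, 233 and 136 in F3 (1.33), and nhr-78 had 3.07, 31 and 3.31 CPM, against 2.16, 2.67 and 2.62, a change of 2.31 that was 0.32 without F15 replicate 2.

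In EG6089, F3 double mutants compared with P0 had 3 receptor genes higher and 19 lower of 95 tested, against 3.37% and 11.3% of all genes. The 22 calls became 3 without P0 replicate 2, and 9, 13 and 11 without F3 replicates 1, 2 and 3. The abundant nhr-15 averaged 344.2 CPM in F3 double mutants and 871.1 CPM in P0 ones (−1.34, SE 0.20, adjusted p = 0.000352). As an unscaled share of gene counts it averaged 0.0373% at F3 and 0.0700% at P0 in these mutants. The size of this change therefore depends on the scaling. F3 wild type compared with P0 had 3 higher and 1 lower, against 4.84% and 3.57%, and none was called without wild-type P0 replicate 2.

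Whether a mutant's effect differed between generations was tested directly. For F3 against P0, no receptor gene was called by edgeR in met-2 (0.0157% of all genes), set-25 (0.0%) or double mutants (0.0%) of SX1263, with 4, 3 and 5 at an unadjusted p under 0.05 and none by DESeq2. For met-2 at F15 against F3, 3 were called, against 3.78% of all genes, and for EG6089 double mutants at F3 against P0, 1 was called, against 0.341%. In the F15 test, 7 were called without met-2 F15 replicate 1 and 6 without met-2 F3 replicate 2. The 4 genes were nhr-143, nhr-146 and nhr-186 in met-2 and nhr-101 in EG6089. For each, the signed log2 change of mutant over wild type was lower in the later generation. At nhr-146 this was a larger fall, −3.63 at F15 against −1.635 at F3. At nhr-101 it was a smaller rise, 3.96 at F3 against 5.20 at P0.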

How the data were processed

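The authors deposited raw counts per gene, 1 file per library, from HTSeq. As tools, the submitters' processing notes list HTSeq, Bowtie2, cutadapt, DESeq2 and FastQC, with no version, and they give WBcel235 and ce11 as builds. Strand mode and length filters are not given in the sources used here. Per the labels' protocols, TRIZOL served for RNA extraction and library preparation used 1 of 2 small RNA kits, which are not assigned to libraries. Left out were the 5 counter rows, which held between 50.8 and 62.0% of all records for SX1263 and between 29.2 and 42.4% for EG6089. Tests used the quasi-likelihood F test of edgeR 4.0.16 with robust dispersions (R 4.3.3), TMM scaling and filterByExpr (minimum count 10, minimum total 15). All groups of a background and generation entered 1 fit, or all groups of a background for generations, and p-values were adjusted by the Benjamini-Hochberg method over all genes tested, called under 0.05. All tests were two-sided, there were 51 comparisons, and the scripts were tested on simulated data. SE is the log2 change over the root of F.

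Named genes were the 8 called members with the largest change each way per mutant comparison among controls (at least 5 CPM in the higher group, no overlap of libraries), the 6 highest per kb, members with a known role, and up to 3 each way or 6 by adjusted p in other comparisons. A further exception is stated where it occurs. The members and lists were chosen with earlier results of these data known. As alternatives, DESeq2 1.42.0, RLE scaling, a replicate block, testing without the low-count filter, a fit to the compared groups alone and leaving out each library were run. Replicate numbers paired libraries, by a correlation over 0.1 in each of 3 or more pairs, in 13 of 46 comparisons. Gene positions are those of the Ensembl annotation of WBcel235, and a genome sequence was not used here.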

Additional observations from a re-analysis of the deposited data

Results flagged for a closer look

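The effect of the met-2 mutation differed between F15 and F3 for nhr-146, where the difference of the log2 changes was −1.97 (SE 0.346, adjusted p = 0.000337, edgeR's quasi-likelihood interaction test). The gene had 15, 17.3 and 6.95 CPM in F15 met-2 libraries, against 166.7, 138.3 and 173.5 in F15 wild type, and 92.8, 42 and 62.7 CPM in F3 met-2 libraries, against 199.6, 203.8 and 213.0 in F3 wild type. For nhr-186 the difference was −2.50 (SE 0.611, adjusted p = 0.0101), from 0.485, 0.751 and 1.49 CPM in F15 met-2 libraries, against 2.51, 0.98 and 1.63 in F15 wild type, and 3.03, 3.37 and 2.10 CPM in F3 met-2 libraries, against 0.596, 1.48 and 0.671 in F3 wild type. For nhr-143 it was −5.78 (SE 1.5, adjusted p = 0.0171), but F15 met-2 held only 1 count, so the size depends on the prior count, and the call was lost without met-2 F3 replicate 1 or wild-type F15 replicate 1.

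In EG6089 the effect of the double mutation on nhr-101 differed between F3 and P0 by −1.41 (SE 0.227, adjusted p = 0.00489, the same test). In the fit over both generations the gene averaged 420.9 CPM in F3 double mutants and 29.3 CPM in F3 wild type. At P0 it averaged 748.3 CPM in double mutants and 19.5 CPM in wild type. It was high in double mutants at both generations.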

How the results depend on the processing

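No called result changed direction under any alternative run. Counts of receptor genes called in met-2 and double mutants against wild type controls stayed within 1.5 times the reported ones under every alternative run. Leaving out 1 library gave 36 to 42 for met-2 P0, 36 to 40 for F3 and 33 to 41 for F15, 39 to 44 and 42 to 49 for SX1263 double mutants, and 31 to 42 and 40 to 50 for EG6089 ones. For set-25 controls at P0 (3 called) the replicate block gave 5 and leaving out a library 1 to 3, and at F3 (1) DESeq2 gave 5, the block 2 and a fit to the compared groups 12. In the anti-GFP line set-25 at P0 (2) gave 5 by DESeq2, 5 with the block and 0 to 2 without a library, and at F3 (1) 3 by DESeq2 and 2 with the block. There met-2 at P0 (41) gave 26 to 36 and double mutants (46) 22 to 43 without a library.

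Of the feeding comparisons with 0 calls, DESeq2 gave 2 in F3 double mutants of SX1263, and no filter gave 3 in P0 double mutants of EG6089. Without a library they gave 0 to 2 and 0 to 1. For generations in SX1263, wild type F3 against P0 (0) gave 2 by DESeq2, 1 with the block and 0 to 1 without a library. In met-2 (0) it gave 0 to 2 without a library, in set-25 (0) 1 by DESeq2, and in double mutants (2) 0 without the filter, 6 with the block and 0 to 7 without a library. At F15 against F3, wild type (0) gave 1 by DESeq2, met-2 (26) 17 to 26 without a library and the test of a changed met-2 effect (3) 2 to 7. In EG6089, wild type F3 against P0 (4) gave 2 under RLE scaling, 12 without the filter, 7 by DESeq2, 7 with the block and 0 to 9 without a library, and double mutants (22) gave 3 to 26. The cause of these shifts was not tested. In comparisons where replicate numbers pair libraries, the block moved the count by over 1.5 times for set-25 alone, and the calls on single genes it changed are given with them. Of 201 named calls, 33 were lost without some library. Depth limits genes near 1 CPM, most of all in EG6089.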
